A study of Rattus norvegicus with 6 samples.

Results

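Circadian clock genes were examined in AR42J, a rat cell line from a tumour of the exocrine pancreas, kept with or without dexamethasone, a synthetic agonist of the glucocorticoid receptor. The set was fixed by name: Per1, Per2, Per3, Bmal1 (also called Arntl), Clock, Cry1, Dbp, Nr1d1, Nr1d2 and Bhlhe40. Of these 10 genes, 9 were found under a single symbol on the Affymetrix Rat 230A array, by 13 of the 15866 probe sets analysed, and Cry1 was not analysed here. The control group (n = 3) was AR42J without dexamethasone and the treated group (n = 3) was AR42J with 100 nM dexamethasone for 48 h. All 6 cultures shared the rest of the protocol: cells revived at passage 29, 24 h of plating in 20% serum, then 48 h in 5% serum. The 3 cultures of a group came from separate runs of the experiment spread over 5 months, and the series' design text describes them as pairs of 1 control and 1 treated culture. Pair differences below join cultures of the same replicate number, which the text does not name as the mark of a pair. The model is 1 cell line at 1 dose and 1 time, and the hour of the day at harvest was not given in the sources used here, so the values are levels at 1 point of any rhythm and not a phase or an amplitude.

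The mammalian clock is a feedback loop of transcription. The Bmal1 and Clock proteins bind E-box DNA and activate the Per and Cry genes, whose products return to the nucleus and repress them. A second loop runs through Nr1d1 and Nr1d2, the REV-ERB repressors, which act on Bmal1 through DNA elements shared with the ROR activators. Bhlhe40 competes for E-boxes, and Dbp carries the rhythm to genes with D-boxes. Glucocorticoids are a known entraining signal of clocks in peripheral tissues, and Per1 is a classical target of the receptor.

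Promoter windows are shown for Bmal1, Nr1d1 and Bhlhe40, the called genes whose windows held a match to the motifs below. That of Per2, the uncalled paralogue of Per1, is shown as well. RefSeq (build GRCr8) gave 11 start sites for the 9 genes, and the 250 bases before each start were searched on both strands. The motifs were the E-box CACGTG and its variant CACGTT, the D-box TTATGTAA and its variant TTACGTAA, the RORE core AGGTCA, the cAMP response element TGACGTCA, the full palindromic glucocorticoid response element and its single arm AGAACA. No matches overlapped each other in these windows. Each sequence runs 5′ to 3′ on the gene's strand up to the base before the start, with the matches in capitals.
Bmal1, chr1:176766078-176766327, plus strand: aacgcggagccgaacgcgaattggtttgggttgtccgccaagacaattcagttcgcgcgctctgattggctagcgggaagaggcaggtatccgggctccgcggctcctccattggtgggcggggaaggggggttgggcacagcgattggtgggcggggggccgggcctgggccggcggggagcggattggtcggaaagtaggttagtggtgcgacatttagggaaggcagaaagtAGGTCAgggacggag
Nr1d1, chr10:84231813-84232062, minus strand: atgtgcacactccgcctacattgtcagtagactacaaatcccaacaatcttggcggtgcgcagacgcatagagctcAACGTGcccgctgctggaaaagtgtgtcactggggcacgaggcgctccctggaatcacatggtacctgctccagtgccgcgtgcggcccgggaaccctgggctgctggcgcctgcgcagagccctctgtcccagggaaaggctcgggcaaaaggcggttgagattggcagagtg
Nr1d1, chr10:84229455-84229704, minus strand: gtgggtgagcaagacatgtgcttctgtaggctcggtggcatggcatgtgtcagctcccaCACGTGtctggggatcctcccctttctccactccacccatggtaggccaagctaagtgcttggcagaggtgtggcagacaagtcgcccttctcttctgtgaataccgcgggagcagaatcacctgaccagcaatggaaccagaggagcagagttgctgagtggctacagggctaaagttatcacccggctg
Bhlhe40, chr4:143174200-143174449, plus strand: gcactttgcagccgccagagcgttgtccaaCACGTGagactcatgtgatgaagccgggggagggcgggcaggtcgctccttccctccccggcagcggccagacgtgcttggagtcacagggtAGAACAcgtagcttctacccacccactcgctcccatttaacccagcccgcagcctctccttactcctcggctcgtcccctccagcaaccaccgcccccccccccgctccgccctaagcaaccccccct
Per2, chr9:99496994-99497243, minus strand: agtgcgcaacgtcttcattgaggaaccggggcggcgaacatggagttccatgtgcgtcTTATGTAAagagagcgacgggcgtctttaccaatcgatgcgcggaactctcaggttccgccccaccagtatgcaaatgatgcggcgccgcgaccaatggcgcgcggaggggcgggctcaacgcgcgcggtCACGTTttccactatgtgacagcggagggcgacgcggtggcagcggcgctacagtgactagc

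In the Bmal1 window the capitals mark an AGGTCA, the core of the element bound by REV-ERB and ROR proteins, from -15 to -10. In the first Nr1d1 window they mark the reverse strand of CACGTT, from -174 to -169, and in the second an E-box from -191 to -186. The Bhlhe40 window held an E-box from -220 to -215 and an AGAACA from -128 to -123. The Per2 window held a D-box from -192 to -185 and a CACGTT from -62 to -57. Outside the windows printed, Nr1d2 had an AGGTCA from -187 to -182 and 1 of the 2 Clock starts an AGAACA from -70 to -65, while Per1, Per3, Dbp and the other Clock start had none of the letters searched.

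These are short words, and chance matches are common. Of 33469 windows of the same length in the promoter table, 5.59% held CACGTG, 4.07% CACGTT, 0.828% TTATGTAA, 14.1% AGGTCA and 17.5% AGAACA. The TTACGTAA variant (0.108% of windows), the cAMP response element (1.59%) and the full glucocorticoid response element (0.012%) were in none of the 11 windows. A match is a description of the letters and not a bound site, and a window without one says nothing of the factor.

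**Figure D1:**
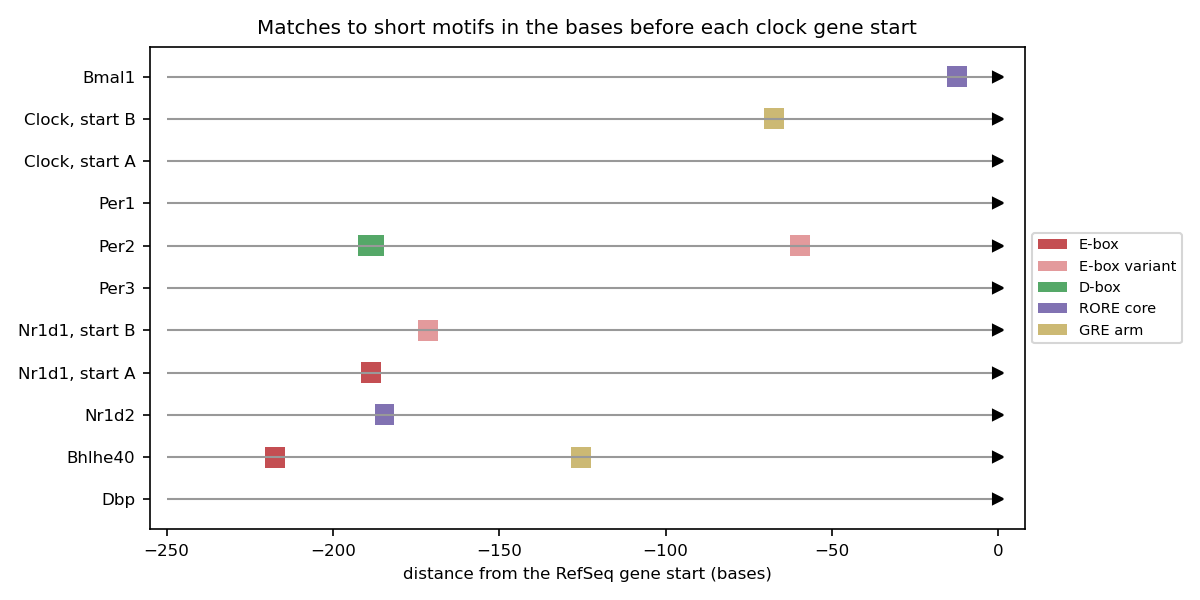
Matches to the motifs in the bases before each RefSeq start of the 9 clock genes. The horizontal axis is the distance from the start in bases, each line is 1 start site (A and B in order of coordinate where a gene has 2), coloured blocks are matches and the triangle is the start. Of the 11 windows, 2 hold CACGTG (Bhlhe40 and Nr1d1) and 2 hold AGGTCA (Bmal1 and Nr1d2).

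With dexamethasone, 4 of the 8 clock genes bright enough to test rose: Per1, Bhlhe40, Nr1d1 and Bmal1, by 5.22-fold, 3.47-fold, 2.22-fold and 1.60-fold. Clock, Per2, Dbp and Nr1d2 did not pass the threshold, and Per3 was too dim to test. None fell by limma at an adjusted p of 0.05, and 1 (Per2) was lower at an unadjusted p under 0.05. A second Clock probe set, which did not stand for its gene in these counts, was also lower by limma (unadjusted p = 0.022). The treatment moved much of the array: of 7051 genes tested with 1 probe set each, 38.4% were called, 17.0% higher and 21.4% lower. The median log2 change of the 8 clock genes was 0.38, against -0.04 over all genes tested, and their median absolute change was 0.56, against 0.35. Over all 10 clock probe sets tested the median change was 0.11, against -0.05 over all probe sets tested. These counts describe the genes that passed a filter on mean signal (147.6), and Per1 passed it through its treated arrays alone. Signals are MAS5 intensities as deposited, without further normalization. A log2 change is the treated minus the control level as fitted by limma, ± its SE, and its p was adjusted by Benjamini-Hochberg over all 9520 probe sets tested, of which 37.1% were called (15.9% higher, 21.2% lower).

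**Figure D2:**
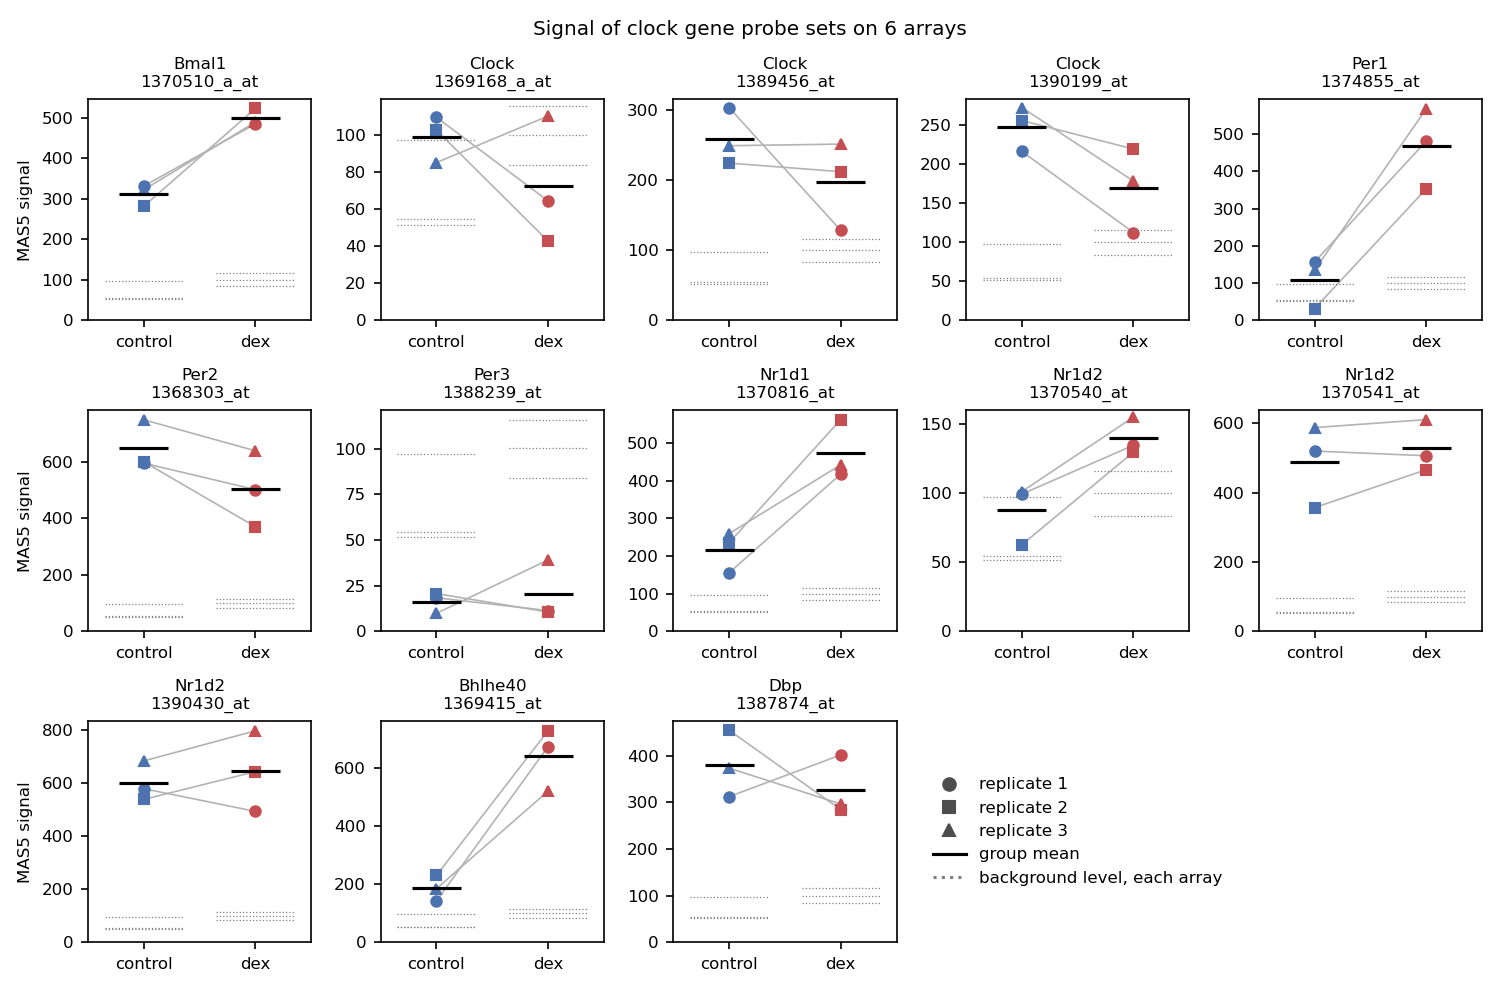
MAS5 signal (linear, vertical axis from 0) of the 13 clock gene probe sets in control and dexamethasone (dex) cultures. Symbols are replicates 1 to 3, grey lines join cultures of the same number, bars are group means and dotted lines are the background level of each array. Per1, Bhlhe40, Nr1d1 and Bmal1 have all 3 treated signals above all 3 control signals.

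The deposited signals share a scale, with trimmed means from 499.61 to 499.87 per array. Scaling every array to a common target would give such values by itself. They therefore do not show that the arrays were comparable before scaling. The background level of an array, the highest signal of 27 Bacillus subtilis control probe sets, ran from 51.7 to 115.9. All 9 acinar markers on the array, among them Prss1, Cpa1 and Ptf1a, were above background on all 6 arrays. Their summed signal was 70338 to 85397 in controls and 106243 to 117504 with dexamethasone. Of the 9, 7 were called higher, against 17.0% of all genes tested, and Cel and Cpa1 did not pass. Mean Prss1 went from 726.1 to 15481 and Cela2a from 4450 to 15484, but Cpa1 from 19716 to 17049. The summed signal of 3 duct markers was 2835 to 3985 in controls and 723.6 to 2040 with dexamethasone. Most of it was Krt19 (means 2721 and 1042), and Car2 was too dim to test. The summed signal of 5 immune markers was 185.3 to 234.7 and 242.0 to 345.9, with Itgam and Ptprc at background throughout. Of these 5, 1 was above background on all control arrays and 0 on all treated arrays, so their sums lie near the floor. The summed signal of 3 endothelial markers was 169.1 to 252.7 in controls and 258.9 to 427.3 with dexamethasone, and they did not move together. Kdr was at background throughout. Vwf had a mean of 37.9 in controls and 26.0 with dexamethasone, above background on 1 control array and 0 treated arrays. Pecam1 was called higher (1.05, adjusted p = 0.0143), a call lost without replicate 2 (adjusted p = 0.0791). The sums of 6 islet markers (3175 to 3644 in controls, 2633 to 5006 with dexamethasone; Gcg at background throughout) and of 5 stromal markers (821.6 to 974.4 and 863.2 to 1048) overlapped between the groups. Most of the islet sum was Chga, with a mean of 3028 in controls and 2968 with dexamethasone. Only 2 of the 6 islet markers, Chga and Ins1, were above background on all arrays. Of 7 glucocorticoid-responsive reference genes, 6 rose and 1 fell. The rises ran from 1.68 (Tsc22d3) to 5.96 (Sgk1) on the log2 scale, with Fkbp5 at 2.69, Klf9 at 2.66 and Dusp1 at 2.78. Dimmer probe sets of Klf9 and Dusp1 were not tested. For Klf9, 1 had 98.2, 120.6 and 89.2 in controls and 99.4, 107.6 and 139.4 with dexamethasone, with overlap. Another had 12.2, 14.6 and 13.8, then 140.2, 218.8 and 371.7. That of Dusp1 had 28.3, 28.9 and 72.6, then 211.3, 288.5 and 255.5. Tat, at background on all 3 control arrays, rose at least 20.0-fold (adjusted p = 1.19e-06). Sgk1, Tat and Pecam1 passed the filter through their treated arrays. The receptor gene Nr3c1 was the exception and fell by 0.48 ± 0.13 (adjusted p = 0.0157). Its call was lost with 75th percentile centring (adjusted p = 0.0513), without replicate 1 (0.0754) or replicate 3 (0.0506) and, in fits without the replicate block, without control replicate 1 (0.0571) or control replicate 3 (0.0762). The part of these shifts in the clock results was not tested, and in bulk RNA fewer cells with a transcript cannot be told apart from less of it per cell.

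The Period genes encode the repressors of the loop, and those on the array read differently. Controls 1 to 3 had Per1 signals of 157.3, 31.9 and 135.1, and treated cultures 1 to 3 had 481.2, 353.2 and 568.0. The groups did not overlap, and control 2, the lowest, was the only one of the 6 arrays below its background level. The rise was 2.38 ± 0.33 on the log2 scale (adjusted p = 0.000624), with pair differences of 1.61, 3.47 and 2.07. The large second value rests on that dim control: without control replicate 2, in a fit without the replicate block, the change was 1.65 (adjusted p = 0.00118), and with 50 added to every signal it was 1.80 (adjusted p = 0.000112).

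Per2 encodes the Period protein whose disruption abolishes stable rhythms in mice. Its signals were 594.4, 599.5 and 747.8 in controls and 501.1, 370.0 and 638.1 with dexamethasone. Each treated culture was below the control of its number, with pair differences of -0.25, -0.70 and -0.23 on the log2 scale, but treated culture 3 lay above controls 1 and 2, so the groups overlapped. The change, -0.39 ± 0.16, did not pass (adjusted p = 0.0819; unadjusted 95% interval -0.75 to -0.03). When arrays were scaled to their hybridization controls, which moves the median of all probe sets tested from -0.05 to -0.29, Per2 was called lower (-0.63, adjusted p = 0.0107).

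Per3, a Period family member that is dispensable for the core rhythm in mice, was below background on all 6 arrays. Its signals were 18.4, 20.7 and 9.9 in controls and 11.4, 10.6 and 39.1 with dexamethasone. They give no level and no direction.

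Bmal1 and Clock encode the activators, a pair of bHLH-PAS proteins that bind DNA together. Bmal1 signals were 331.2, 281.4 and 322.0 in controls and 484.4, 522.6 and 489.0 with dexamethasone, with no overlap and a small spread in each group. The log2 change was 0.68 ± 0.16 (adjusted p = 0.00988), and the 3 pair differences were 0.55, 0.89 and 0.60. Its call was lost with hybridization control scaling (0.44, adjusted p = 0.0724) and without replicate 2 (0.58, adjusted p = 0.0567). The probe set's suffix (_a_at) marks probes that can match several transcripts of the gene.

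Clock was read by 3 probe sets, which gave no call. The brightest had signals of 303.5, 224.5 and 249.3 in controls and 128.5, 212.2 and 251.6 with dexamethasone. Treated culture 1 stood low, treated culture 2 was just under the lowest control and treated culture 3 lay within the controls' range. Its change was -0.44 ± 0.26 (adjusted p = 0.232, interval -1.04 to 0.17), and -0.03 without replicate 1.

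The second Clock probe set had 216.2, 255.7 and 272.4 in controls and 112.4, 219.3 and 178.2 with dexamethasone. It was lower in 3 of 3 pairs, with overlap between groups at treated culture 2 and control 1, and just missed the threshold (-0.59 ± 0.21, adjusted p = 0.0576). It was called lower with hybridization control scaling (-0.83, adjusted p = 0.0169), with no intensity trend (adjusted p = 0.0403) and, in a fit without the replicate block, without dexamethasone replicate 2 (-0.80, adjusted p = 0.0392). The dimmest had 109.6, 102.7 and 85.2 in controls and 64.5, 42.8 and 110.3 with dexamethasone, and was not tested. It was above background on the 3 control arrays and on 0 treated arrays. Treated culture 3 had the highest of its 6 signals, but the background of that array was 115.9, against at most 97.3 on a control array. In the gene table Clock overlaps 2 non-coding genes, whose share in these signals was not tested.

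The REV-ERB receptors, nuclear receptors that bind haem and repress transcription, likewise gave 1 riser and 1 gene that was not called. Nr1d1 signals were 155.9, 235.8 and 259.9 in controls and 417.8, 562.7 and 442.5 with dexamethasone, and the lowest treated value was well above the highest control. The change was 1.15 ± 0.19 (adjusted p = 0.00157), with pair differences of 1.42, 1.25 and 0.77. The gene overlaps Thra, a thyroid hormone receptor gene, so the identity of the transcript read at that end rests on the array's probe design.

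Nr1d2, its paralogue, was also read by 3 probe sets. The brightest had signals of 578.1, 537.9 and 682.5 in controls and 492.8, 642.2 and 795.9 with dexamethasone, and the second 519.4, 356.6 and 587.0 in controls and 505.9, 465.7 and 610.0 with dexamethasone. In both, replicate 3 was the highest of its group and the groups overlapped widely. Their changes were 0.08 ± 0.16 (adjusted p = 0.714, interval -0.27 to 0.44) and 0.13 ± 0.15 (adjusted p = 0.537, interval -0.22 to 0.49). The sign of each turned with hybridization control scaling, to -0.16 and -0.11. The upper ends of these intervals lie below the lower end of that of Nr1d1 (0.73 to 1.57).

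The remaining, dim Nr1d2 probe set behaved differently. It had 99.3, 62.7 and 101.1 in controls and 134.6, 129.7 and 155.0 with dexamethasone, with no overlap, but control 2 was below background and the probe set did not reach the filter. In a fit with no filter its change of 0.70 ± 0.28 did not pass (adjusted p = 0.134).

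Bhlhe40 (also known as Dec1), a bHLH repressor that binds E-boxes, had signals of 143.2, 231.2 and 185.5 in controls and 675.0, 729.8 and 521.6 with dexamethasone. The lowest treated signal was over the highest control by a wide margin. The change was 1.80 ± 0.19 (adjusted p = 0.000142), with pair differences of 2.24, 1.66 and 1.49, and it stayed past the threshold in each of the 17 alternative settings tried.

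Dbp, a PAR bZIP activator that is among the most rhythmic transcripts of the liver, was not called. Its signals were 312.6, 454.7 and 373.5 in controls and 401.9, 284.4 and 296.7 with dexamethasone. Culture 1 was higher with dexamethasone and cultures 2 and 3 were lower, and the groups overlapped. The change was -0.22 ± 0.21 (adjusted p = 0.469, interval -0.70 to 0.27), and it was 0.015 without replicate 2.

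Ordered by change, the pair differences of Per1 (1.61 to 3.47) and Bhlhe40 (1.49 to 2.24) overlapped, as did those of Nr1d1 (0.77 to 1.42) and Bmal1 (0.55 to 0.89). The pair differences of Nr1d1 all lay below those of Bhlhe40. Of the 10 probe sets tested, 4 had groups that did not overlap, where 49.7% of all probe sets tested did so.

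**Figure D3:**
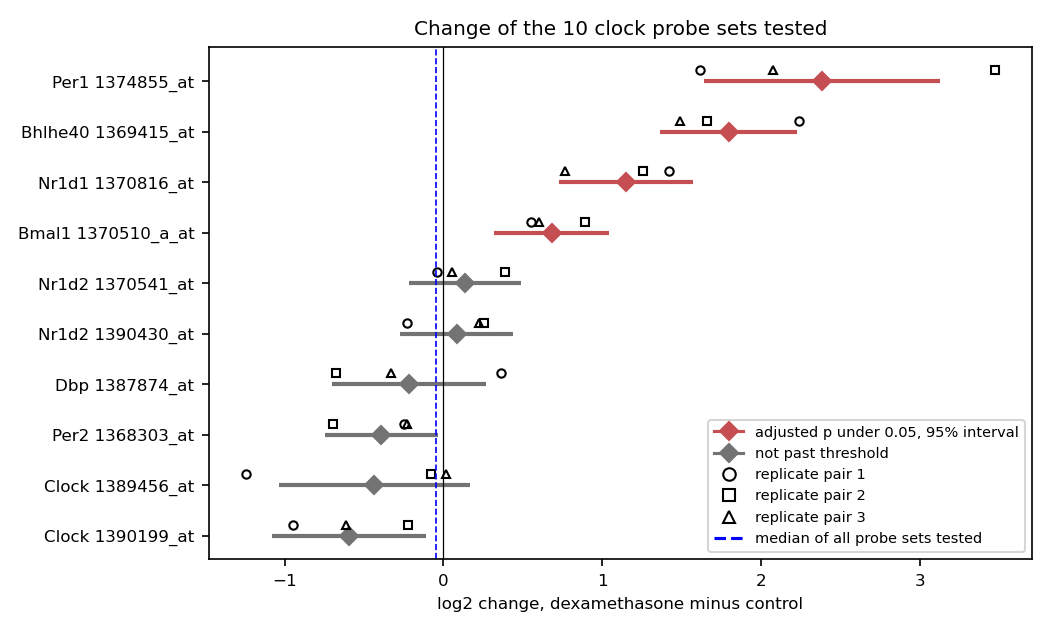
Log2 change (dexamethasone minus control, horizontal axis) of the 10 clock gene probe sets tested. Diamonds and bars are limma's estimates with unadjusted 95% intervals, open symbols are the 3 replicate pairs and the dashed line is the median of all probe sets tested. Per1, Bhlhe40, Nr1d1 and Bmal1 lie to the right with adjusted p under 0.05, and the Per2 and Clock probe sets lie to the left without passing.

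Whether paralogues responded unequally was tested on the log2 ratio within each array, which array scaling cannot change, a test added after the data were seen. The 3 pairs of a clock gene and a paralogue, both tested, from the Period, REV-ERB and Bhlhe40 families were compared by a 2-sided exact permutation test over the 20 splits of the 6 arrays, for which 0.1 is the smallest p possible. The change of Per1 exceeded that of Per2 by 2.78 on the log2 scale (pairs 1.86, 4.17 and 2.30), that of Nr1d1 exceeded that of Nr1d2 by 1.07 (1.65, 0.999 and 0.546), and that of Bhlhe40 exceeded that of its paralogue Bhlhe41 by 1.19 (1.95, 0.84 and 0.78). Nr1d2 was read here by its brightest probe set alone. Its dim probe set, below the filter, had a larger change (0.70, pairs 0.44, 1.05 and 0.62) and was not compared. The paralogue with the larger change was named first. That it was ahead in 3 of 3 pairs in each comparison is thus a description and no support for an unequal response. Each reached that smallest value (exact p = 0.1, adjusted p = 0.1 over the 3), so this design could not place them past a threshold of 0.05. The splits did not keep the pairs, and the changes were known beforehand, so no conclusion is drawn from these p-values. Without control replicate 2, where Per1 was below background, the difference between Per1 and Per2 was 2.10.

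Among 69 other genes of the clock pathway that were listed by role, 58 were on the array and 45 could be tested. Of the 45, 13 rose, 8 fell and 24 did not pass, with a median log2 change of -0.11. These 21 calls among 45 stand beside 38.4% called over all genes tested. With hybridization control scaling the balance turned, to 8 higher and 17 lower, with 75th percentile centring it was 13 higher and 3 lower, and without control replicate 1, in a fit without the replicate block, it was 9 higher and 4 lower.

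The direct partners of the loop showed 3 risers among 4 tested, where 17.0% of all genes tested were called higher. Cry2, a cryptochrome repressor and partner of the Period proteins, rose from 380.1 ± 137.4 to 643.8 ± 109.6 (mean ± SD, n = 3; 0.81 ± 0.22, adjusted p = 0.0185). Its second, dimmer probe set went from 153.8, 52.9 and 123.2 to 298.6, 296.7 and 314.0 and rose by 1.60 ± 0.30 (adjusted p = 0.00335), but it passed the filter through its treated arrays and its control 2 was below background. The call of the brighter one was lost without replicate 2 (0.47, adjusted p = 0.0894) and with hybridization control scaling (0.57, adjusted p = 0.0932), and in 4 of the 6 fits that left out a single array, without the replicate block (adjusted p = 0.0674 without control replicate 1, 0.0878 without control replicate 2, 0.0915 without dexamethasone replicate 2 and 0.0724 without dexamethasone replicate 3).

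Nfil3 (E4bp4), the repressor that competes with Dbp for D-boxes, had 435.7, 389.7 and 334.4 in controls and 601.7, 722.7 and 647.0 with dexamethasone. It rose by 0.77 ± 0.16 (adjusted p = 0.00573), while Dbp itself was not called. Bhlhe41 (Dec2) had 218.5, 192.7 and 217.4 in controls and 266.2, 338.9 and 355.2 with dexamethasone, a rise of 0.60 ± 0.19 (adjusted p = 0.0340). That call was lost without replicate 2 (0.50, adjusted p = 0.139) or replicate 3 (0.55, adjusted p = 0.116), with hybridization control scaling (0.36, adjusted p = 0.169) and with no filter (adjusted p = 0.0719). It was also lost in 5 of the 6 fits that left out a single array, all but that without dexamethasone replicate 1 (adjusted p = 0.0541 to 0.0636).

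Timeless and Tipin, grouped with the clock by name and better known in mammals for protecting replication forks, had lower mean signals with dexamethasone. Timeless had 266.2, 283.2 and 240.1 in controls and was not above background on any treated array, at least 2.65-fold lower, but its mean signal kept it from the test. Tipin, at 185.1 ± 18.8 in controls and 135.6 ± 20.0 with dexamethasone (mean ± SD, n = 3), did not pass (-0.45 ± 0.23, adjusted p = 0.157). The PAR bZIP genes Tef and Hlf and the ROR gene Rorb were too dim to test, with group means of 82.0 to 147.4.

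Enzymes that set the stability of clock proteins included the strongest rise of the pathway lists. Usp2, a deubiquitinase that acts on Period, cryptochrome and Bmal1 proteins, went from 118.8, 85.4 and 112.5 to 681.0, 779.7 and 799.8 (2.85 ± 0.19, adjusted p = 1.03e-05). Control 2 was below background and the gene passed the filter through its treated arrays. Its other probe set rose by 2.28 ± 0.39 (adjusted p = 0.00203), with the same limit: control 1 was below background and the filter was passed through the treated arrays. Of the other 6 genes tested in the ubiquitin system, Btrc, the F-box protein that marks phosphorylated Period proteins, fell by 0.49 ± 0.15 (adjusted p = 0.0312) on its brighter probe set and did not pass on the other (-0.61 ± 0.23, adjusted p = 0.0608), and 5 did not pass. The call of Btrc was lost with quantile normalization (adjusted p = 0.0912), with 75th percentile centring (adjusted p = 0.0842), with no filter (adjusted p = 0.0508) and without any 1 of the 3 replicates (adjusted p = 0.0599 to 0.127). Among 11 kinases and phosphatases tested, 1 rose and 3 fell, a share called near the 38.4% of all genes tested. The Period kinases Csnk1d (-0.02 ± 0.14, adjusted p = 0.938) and Csnk1e (-0.43 ± 0.18, adjusted p = 0.0922) did not pass, although Csnk1e was called lower with hybridization control scaling (-0.67, adjusted p = 0.0190).

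Of 12 cofactors tested, 2 rose and 2 fell, where 38.4% of all genes tested were called. Sfpq, a splicing factor that recruits deacetylase complexes to Period promoters, fell from 1317 ± 124 to 370.2 ± 111.0 (-1.88 ± 0.20, adjusted p = 0.000133), and its second probe set fell by 1.29 ± 0.14 (adjusted p = 0.000167). Its partner Nono did not pass (-0.21 ± 0.10, adjusted p = 0.153), but limma called it lower after hybridization control scaling (-0.45, adjusted p = 0.00726) or quantile normalization (-0.38, adjusted p = 0.0107).

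Genes described as clock outputs in other tissues gave 6 risers, 2 fallers and 3 that did not pass among 11 tested. Over all genes tested, 17.0% were called higher and 21.4% lower. Pdk4, a kinase that holds back glucose oxidation, rose from 194.8 ± 10.1 to 925.4 ± 384.0 (2.17 ± 0.22, adjusted p = 0.000113). Por, the electron donor of cytochromes P450, rose by 1.57 ± 0.16 (adjusted p = 0.000129) and by 1.64 ± 0.20 on its second probe set. Rgs16, a brake on G protein signalling, rose by 1.36 ± 0.16 (adjusted p = 0.00029). E2f8, a cell cycle repressor, fell by 2.75 ± 0.21 (adjusted p = 1.9e-05) and passed the filter through its control arrays. Several of these genes are also known glucocorticoid or cell cycle genes, and the share of the clock in their change was not tested.

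**Figure D4:**
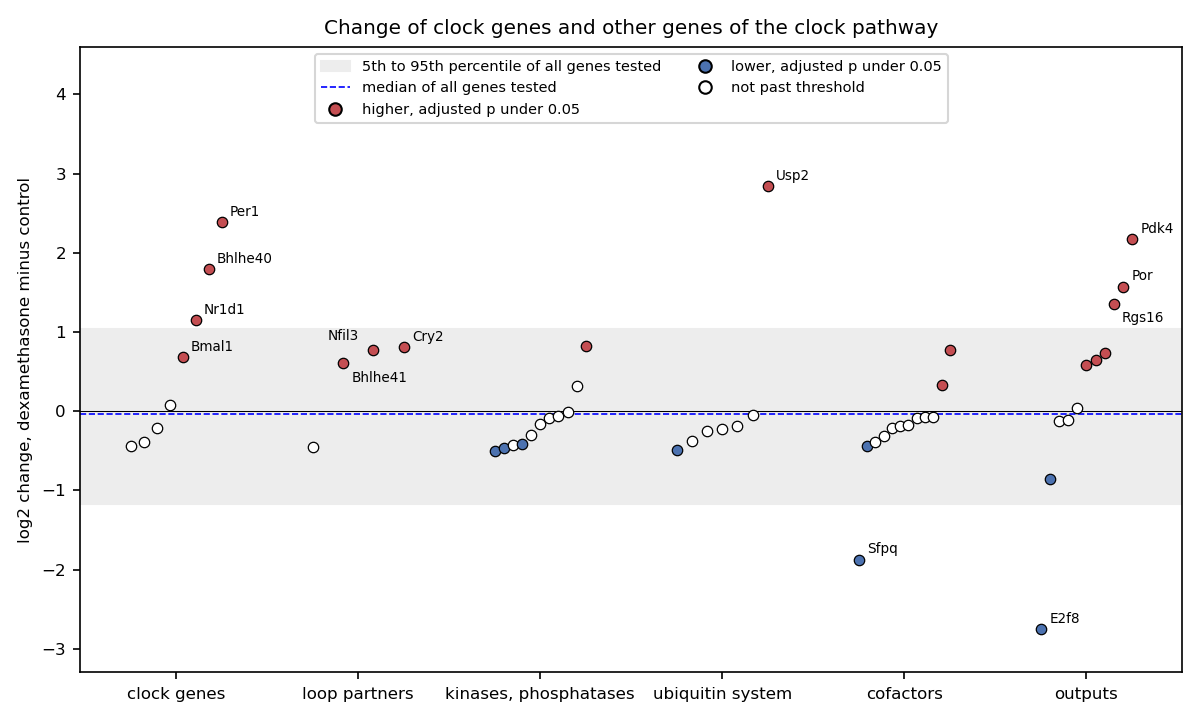
Log2 change (dexamethasone minus control, vertical axis) of each gene tested, 1 probe set per gene, for the clock genes and 5 lists of other pathway genes. Red and blue points have an adjusted p under 0.05 (higher and lower), white points did not pass, the grey band spans the 5th to 95th percentile of all 7051 genes tested and the dashed line is their median. Usp2, Per1 and Pdk4 lie highest and E2f8 and Sfpq lowest.

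The genes whose log2 signal followed each riser most closely over the 6 arrays were listed as a description, since the arrays form 2 groups and any gene that differs strongly between them correlates. For Bmal1 they were Itm2b, Tm2d2 and Adgrg1 (Pearson r 0.998, 0.998 and 0.996), for Bhlhe40 Aup1, Csnk2a2 and Ero1b (0.997, 0.996 and 0.996), for Nr1d1 Atp5po, Tfpi and S100a13 (0.989, 0.988 and 0.985), and for Per1 Saysd1, Dsp and Napg (0.997, 0.995 and 0.993). Above 0.95 there were 331 genes for Bhlhe40, 285 for Bmal1, 53 for Nr1d1 and 52 for Per1. Saysd1 itself was not called (0.23, adjusted p = 0.251), and its r with Per1 was 0.618 with hybridization control scaling. With that scaling the r of Nr1d1 was 0.681 with Atp5po and 0.715 with Tfpi.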

How the data were processed

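Total RNA of 6 AR42J cultures (3 control, 3 with dexamethasone) was hybridised to 6 Affymetrix Rat 230A arrays. Per the submitters' processing notes the authors used GCOS and MAS5, and the deposited values are 1 linear intensity per probe set and array. Versions and scaling settings are not given in the sources used here. Depth in the sense of counts does not apply, and the number of arrays limits the precision. No 2 arrays shared more than 47 of 15866 values.

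Of 15923 probe sets, 57 array controls were left out. Symbols came from the GEO platform annotation, updated by gene identifier through the NCBI table of GRCr8: 12783 probe sets had 1 symbol, 312 several and 2771 none. A gene was counted once, by the brightest (in mean log2 signal) of its one-symbol probe sets, and all probe sets of clock genes are given. After 4 values of 0 were set to 0.1, signals were taken to log2, without further normalization. Probe sets at or above the 40th percentile of mean log2 signal (a signal of 147.6) were tested, 9520 in all. The fit was a linear model of treatment with replicate number as a block in limma 3.58.1 under R 4.3.3, with variances moderated by eBayes along an intensity trend. P-values were adjusted by Benjamini-Hochberg and called below 0.05. The fit was run on simulated data as a check of the code. Those data were given a pair effect by replicate number, so they lend no support to the calls made here. Where a probe set was below the background level on all arrays of a group, the fold is a bound against the higher of that level and its own signal.

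The series' design text gives pairs, and taking the replicate number as their mark is an assumption. Over all probe sets tested, deviations from the group means of same-numbered arrays correlated at -0.10, 0.11 and 0.21 for numbers 1, 2 and 3, so the signals themselves bear the pairing out only in part: number 1 does not pair by this measure, and control 2 correlated more with dexamethasone 1 (0.18) than with dexamethasone 2. The genes, lists and tests were chosen with earlier results of these data known. Named were every clock gene probe set, every loop partner tested, genes of the other lists called with a log2 change of at least 1, and the 3 genes closest to each riser. Btrc, Csnk1d, Csnk1e, Nono, Nr3c1, Pecam1, Timeless, Tef, Hlf and Rorb were named after their values were seen. Alternatives were no block, quantile normalization, centring on the 75th percentile, scaling to hybridization controls, a pseudocount of 50, no filter, a 60th percentile filter, no intensity trend, and leaving out pairs or single arrays.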

Additional observations from a re-analysis of the deposited data

How the results depend on the processing

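The 4 clock genes called became 2 with the 60th percentile filter, since Per1 and Nr1d1 were then not tested, and 4 were called in each of the other scaling, filter, pseudocount, block and variance settings, although with hybridization control scaling they were 3 higher and 1 lower. Leaving out a pair or a single array gave 3 to 5 clock genes, 13 to 20 of the other pathway genes (21 with all arrays) and 2461 to 3530 probe sets (3531). Without the replicate block limma called 4 clock genes, 23 other pathway genes and 3542 probe sets, and it changed no call of a clock gene. The sign of uncalled changes turned for Dbp (-0.50 to 0.015 when a pair was left out) and for the 2 Nr1d2 probe sets tested. The brighter one ran from -0.0043 to 0.24 when a pair was left out, was -0.084 without dexamethasone replicate 3 and -0.16 with hybridization control scaling. The other was -0.076 without control replicate 2 and -0.11 with that scaling. Csnk1d was -0.17 to 0.13 when a pair was left out, 0.11 with 75th percentile centring, and 0.064, 0.052 and 0.041 without control replicate 2, dexamethasone replicate 2 and dexamethasone replicate 3. Per2 was also called lower without dexamethasone replicate 3 (-0.58, adjusted p = 0.0311), Tipin with hybridization control scaling (-0.70), and Csnk1e without control replicate 2 (-0.58). The share of called probe sets that were higher was 42.8% with the deposited scaling, 57.5% with 75th percentile centring and 19.3% with hybridization control scaling, with a median log2 change over the tested probe sets of -0.05, 0.08 and -0.29 respectively. Why these calls moved was otherwise not tested. Single-array fits had no block, and signals near background limit Per1, Per3 and the dimmer Clock and Nr1d2 probe sets.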
